A study of Nannochloropsis oceanica with 15 samples.

Results

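The mRNA levels of 3 genes with names from cell division were followed over 5 times in the marine microalga Nannochloropsis oceanica: a cyclin annotated as cyclin-A1-1 (NO13G01690), a protein kinase annotated as Nek2 (NO17G02980) and the small chain of ribonucleotide reductase (NO04G04660). They are 3 of the 10434 genes of the table, and all 3 were among the 9321 genes with enough counts to be tested. They were chosen by their measured rise between 0 and 6 h, so every difference that holds the 0 h or the 6 h libraries is given for them as a description, with no test. They were tested only between 12, 24 and 48 h, whose libraries did not choose them.

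RNA sequencing of total RNA gave 15 libraries of strain IMET1, with 3 (replicates a, b and c) at each of 0, 6, 12, 24 and 48 h. Cells grown under continuous light were spun down in linear growth, washed with sterile seawater and placed in f/2 medium lacking phosphate. All 15 libraries, those of 0 h included, carry the label of phosphate deprivation, and none is labelled as complete medium. The titles of the 6, 12, 24 and 48 h libraries hold "-P", while those of 0 h do not. With no later libraries in complete medium, time since transfer, handling and lack of phosphate cannot be told apart. The labels do not say whether libraries of different times came from the same cultures, so the p-values measure the spread between libraries, which may be partly technical. In such bulk RNA, fewer dividing cells and less of these mRNAs per dividing cell cannot be told apart.

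Cyclins are the regulatory subunits that switch on cyclin-dependent kinases. In plants and animals, A-type cyclins act during DNA replication and on the way into mitosis. NIMA-related kinases, named after a fungal mitotic kinase, include animal Nek2, which acts in the separation of centrosomes, and plant members that act on microtubules. Ribonucleotide reductase makes deoxyribonucleotides, the building blocks of DNA, from ribonucleotides, with a large chain that binds the substrate and a small chain that supplies the radical for the reaction.

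The names rest on sequence similarity recorded in the authors' table. NO13G01690 was annotated with cyclin N-terminal and C-terminal domains and as cyclin A in KEGG. NO04G04660 was annotated with the ribonucleotide reductase small chain domain and as subunit M2 in KEGG. The name Nek2 of NO17G02980 came from a rice protein, while KEGG placed it with other members of the NIMA-related family, its domain annotation was that of a general protein kinase, and its KOG class was defence. It is called Nek2 here because the table does so.

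Total counts per library were 16649421 to 26349336, and a count of 0 would allow up to 0.114 to 0.18 CPM (counts scaled to library depth), counting error only. The library of 6 h replicate c was the deepest (26349336 counts, against 16661053 and 16695564 for a and b). All 3 genes were lower in it than in the other 6 h libraries, at 63.1% of the mean of a and b for cyclin-A1-1, 62.8% for Nek2 and 53.7% for the small chain. Over the 8014 genes whose log2 CPM averaged 3 or more, the median of the same ratio was 100.5%. Its part in the 6 h values was not tested, and values without this library are given where it matters.

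Cyclin-A1-1 was barely detected at 0 h, with 0.875, 1.2 and 0.714 CPM in replicates a, b and c, which are 15, 24 and 17 counts. At 6 h the same replicate letters held 73.9, 67.3 and 44.6 CPM. At 12 h they held 53, 41.4 and 50.1 CPM. These were its highest times, and the 2 groups of libraries overlapped. The levels at 24 h were lower, at 18.7, 16.4 and 12.9 CPM. At 48 h they were 6.17, 4.44 and 5.76 CPM. Every 48 h library therefore lay below every 24 h library and above every 0 h library.

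The mean level of cyclin-A1-1 was 0.929 ± 0.245 CPM at 0 h and 61.9 ± 15.4 CPM at 6 h (SD, n = 3), a 66.7-fold difference of the means and, as fitted, 6.05 ± 0.28 (SE) on the log2 scale. The order of its mean levels was 6, 12, 24, 48 and 0 h. The 12 h level was -0.36 ± 0.22 (log2) from that of 6 h, and without 6 h replicate c it was -0.55. At 48 h the mean was 5.46 ± 0.906 CPM, 5.87-fold the 0 h level.

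**Figure D1:**
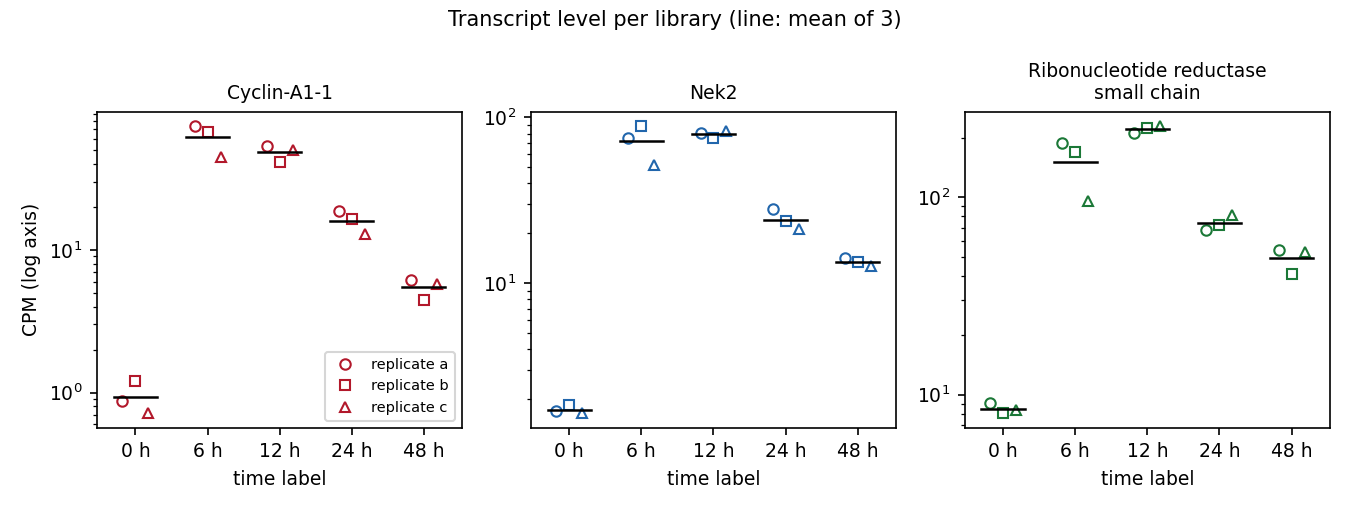
CPM of the 3 genes in each library on a log axis, against time in hours (spaced evenly, not to scale); each symbol is 1 library (circle a, square b, triangle c) and each short line the mean of 3. The 0 h libraries lie lowest for each gene, the levels stand highest at 6 and 12 h, and every 48 h library stays above every 0 h library.

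Nek2 began at 1.69, 1.84 and 1.64 CPM in the 0 h replicates a, b and c. At 6 h it stood at 75.6, 89 and 51.7 CPM. At 12 h it stood at 80.5, 74.8 and 83 CPM, within the range of the 6 h libraries. The kinase was lower in all later libraries, with 27.9, 23.6 and 21.2 CPM at 24 h. At 48 h it measured 14.3, 13.5 and 12.8 CPM. The 3 libraries of 48 h differed little, with a mean of 13.5 ± 0.743 CPM (SD, n = 3).

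The Nek2 mean was 1.73 ± 0.107 CPM at 0 h and 72.1 ± 18.9 CPM at 6 h, 41.8-fold apart and 5.38 ± 0.20 on the log2 scale. Its highest mean was that of 12 h, 79.4 ± 4.19 CPM, but this differed from the 6 h mean by only 0.14 ± 0.16 (log2). The order of the 2 times turned without 6 h replicate c (-0.05) and in the authors' FPKM values (-0.38), so the time of its peak was not resolved between 6 and 12 h. At 48 h its mean was 7.84-fold that of 0 h (fitted log2 2.97 ± 0.18), and 8.47-fold in mean FPKM.

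The small chain of ribonucleotide reductase was already expressed at 0 h, with 9.05, 8.03 and 8.4 CPM. At 6 h it held 186.9, 168.0 and 95.3 CPM. At 12 h it held 211.3, 224.8 and 229.1 CPM, above all 6 h libraries. The 12 h libraries were also close to each other. The levels were 68.1, 72.2 and 81 CPM at 24 h. At 48 h they were 53.8, 41 and 52.4 CPM, below all 24 h libraries.

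Its mean was 8.49 ± 0.516 CPM at 0 h and 150.1 ± 48.3 CPM at 6 h, 17.7-fold apart and 4.14 ± 0.22 on the log2 scale. The 12 h mean of 221.7 ± 9.29 CPM was 0.56 ± 0.20 (log2) above that of 6 h, or 0.32 above it without 6 h replicate c. Its order of levels was 12, 6, 24, 48 and 0 h, and the libraries of neighbouring times in that order did not overlap. At 48 h the mean was 49.1 ± 7 CPM, 5.78-fold the 0 h level.

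These rises were the values that selected the genes. Among the 138 genes of 13 lists of cell division and DNA replication genes whose log2 CPM averaged 3 or more, cyclin-A1-1 and Nek2 had the largest differences between 6 and 0 h, and the small chain the fourth largest. A beta-tubulin (NO04G01220) lay between them at 4.27 ± 0.16 and was not among the chosen genes. The next gene below the small chain was newGene_158, at 3.05 ± 0.26. It is named after the condensin subunit SMC4 but carries no domain annotation. Between 0 and 6 h, 24.7% of all tested genes were called as rising and 25.7% as falling.

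Between 12 and 24 h, which did not choose them, all 3 genes fell. Cyclin-A1-1 fell by 1.59 ± 0.23 on the log2 scale (mean 48.2 ± 6.03 to 16 ± 2.93 CPM, SD, n = 3; adjusted p = 9.6e-05, edgeR's quasi-likelihood test with Benjamini-Hochberg adjustment over all 9321 genes, as for every adjusted p here). Nek2 fell by 1.71 ± 0.17 (79.4 to 24.2 ± 3.39 CPM, adjusted p = 4.6e-06, edgeR). The small chain fell by 1.59 ± 0.20 (221.7 to 73.7 ± 6.61 CPM, adjusted p = 3.5e-05, edgeR). By these fitted values 33.2%, 30.5% and 33.3% of the 12 h level were left at 24 h. Of all tested genes, 26.6% were called lower at 24 h than at 12 h and 27.2% higher. Smaller log2 values than those of the 3 genes were found in 7.68%, 6.69% and 7.7% of the tested genes.

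Between 24 and 48 h, when 10.4% of all tested genes were called lower, the 3 genes moved by different amounts. Cyclin-A1-1 fell by a further 1.55 ± 0.23 (log2, adjusted p = 6.8e-04, edgeR), to 34.1% of its 24 h level. Nek2 fell by 0.84 ± 0.17 (adjusted p = 0.0038, edgeR), to 55.9%. The small chain did not pass the threshold, at -0.59 ± 0.20 (adjusted p = 0.052, edgeR) and 66.5% of its 24 h level. Its adjusted p was 0.026 by DESeq2, 0.032 in a fit of the 6 libraries alone, 0.042 with upper-quartile scaling and 0.039 by limma on the authors' FPKM. It did not pass in any other of the 14 alternatives, those with 1 library left out included (largest adjusted p = 0.15, edgeR). Whether the genes differ from each other in these falls was not tested.

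Over the whole span from 12 to 48 h all 3 genes fell, with 26.2% of all tested genes called lower and 26.6% higher. Cyclin-A1-1 fell by 3.14 ± 0.24 (log2, adjusted p = 8.1e-07, edgeR), which left 11.3% of its 12 h level. Nek2 fell by 2.55 ± 0.17 (adjusted p = 3.1e-07, edgeR), which left 17%. The small chain fell by 2.18 ± 0.21 (adjusted p = 3.4e-06, edgeR), which left 22.1%. Among all tested genes, 0.74%, 1.17% and 2.15% had a lower log2 value than these 3. The 3 tested comparisons share libraries and are not independent of each other.

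**Figure D2:**
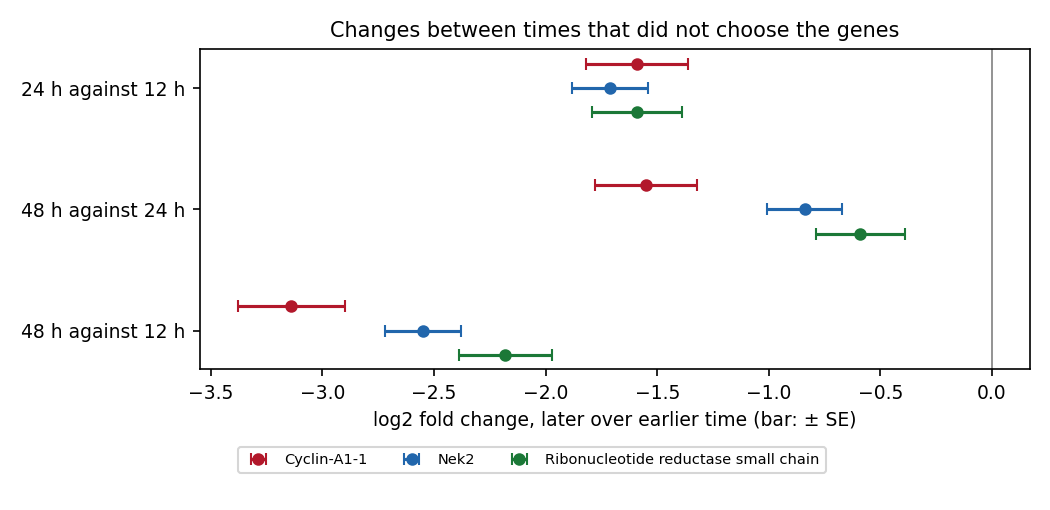
Log2 fold change (x axis, later over earlier time) of the 3 genes between 12, 24 and 48 h, the times that did not choose them; points are the fitted values and bars their SE. Each point lies below 0, from -3.14 for cyclin-A1-1 between 12 and 48 h to -0.59 for the small chain between 24 and 48 h, which alone did not pass the test.

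Levels of the 3 genes can be set beside each other only per length, in FPKM (fragments scaled by transcript length and library depth). On that scale the mean level of the small chain went from 4.13 at 0 h to 83.5 at 6 h and 108.2 at 12 h, then stood at 38.5 and 24.8 at 24 and 48 h. At 12 h, 93.8% of the tested genes had a lower mean FPKM, so it was then among the more abundant mRNAs. Cyclin-A1-1 went from 0.294 to 22.8 FPKM at 6 h and had 1.82 FPKM at 48 h, where 7.22% of the tested genes lay lower. Nek2 had the lowest mean of the 3 at each time, with 0.193, 12.9, 9.49, 3.16 and 1.63 FPKM at 0, 6, 12, 24 and 48 h. Even at 6 h only 34.7% of the tested genes had a lower mean.

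For Nek2 the counts and the FPKM values ranked the 6 h libraries differently. Replicate a had fewer CPM than b (75.6 against 89) but more FPKM (16.8 against 13.7, with 8.11 in c). The transcript length implied by the ratio of the 2 deposited values was 4.81, 7.09 and 6.93 kb in 6 h replicates a, b and c, and 7.59 to 8.62 kb in the other 12 libraries. For cyclin-A1-1 it stayed between 2.90 and 3.12 kb and for the small chain between 1.92 and 2.07 kb. Which estimate is nearer to the true Nek2 level was not tested.

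The other cyclins were called about as often as genes in general. Of the 16 other tested cyclins, 4 rose and 4 fell between 0 and 6 h, which is 25% each way (all tested genes, 24.7% and 25.7%), with a median log2 difference of -0.08 (all tested genes, -0.03). Without 0 h replicate a, 2 fell. Among the 4 that rose, NO11G01810 is named cyclin-B1-2 but carries the domain of a proteasome maturation factor. Between 12 and 48 h, 3 rose and 4 fell, or 18.8% and 25% (all tested genes, 26.6% and 26.2%), with a median of 0.02 (all tested genes, 0.01). The gene with the highest mean log2 CPM, not corrected for length, was a G2/mitotic-specific cyclin S13-7-like gene (NO23G01320), and it ran the other way from cyclin-A1-1. Its mean was 387.6 ± 8.2 CPM at 0 h, 200.2 ± 30 at 6 h, 123.5 ± 28.3 at 12 h, 148.4 ± 17.5 at 24 h and 241.1 ± 13.9 at 48 h (SD, n = 3). It fell by 0.95 ± 0.16 (log2) between 0 and 6 h (adjusted p = 2.8e-04, edgeR) and rose by 0.96 ± 0.16 between 12 and 48 h (adjusted p = 2.5e-04, edgeR).

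Among the next cyclins by mean log2 CPM, cyclin-B1-5 (NO07G04620) fell between 0 and 6 h, from 86.5 ± 10.6 to 58.7 ± 9.2 CPM (log2 -0.56 ± 0.17, adjusted p = 0.017, edgeR), a call lost without 0 h replicate a (adjusted p = 0.064) or 6 h replicate a (0.078). A cyclin-L1-1 (NO03G02890), of a cyclin type linked to transcription and splicing, stayed between 166.4 and 174.4 CPM up to 12 h and stood at 255.0 ± 41.4 CPM at 24 h. A second gene of that name (NO03G03880) fell by 0.23 ± 0.07 between 0 and 6 h (adjusted p = 0.016, edgeR), a call lost without 0 h replicate a (adjusted p = 0.06) or c (0.051). Cyclin-U3-1 (NO14G02130) was called in none of the comparisons between 0 and 6 h and between 12, 24 and 48 h (adjusted p = 0.26 to 0.95, edgeR). Cyclin-U1-1 (NO03G05460) peaked at 12 h, with 113.5 ± 9.63 CPM against 42.5 ± 14.3 at 6 h, and fell by 1.26 ± 0.37 between 12 and 48 h (adjusted p = 0.013, edgeR).

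A pair of B-type cyclins, which drive mitotic entry in animals and plants, were picked after their values were seen. Cyclin-B2-1 (NO12G01680) had 16.5 ± 1.33, 68.9 ± 13.4, 177.7 ± 4.78, 37.8 ± 3.61 and 58.3 ± 21 CPM at the 5 times. It rose by 2.06 ± 0.24 (log2) between 0 and 6 h (adjusted p = 1.5e-05, edgeR) and fell by 2.23 ± 0.24 between 12 and 24 h (adjusted p = 8.1e-06, edgeR). Cyclin-B1-1 (NO25G01730) had 13.8 ± 0.7, 71.8 ± 14.2, 140.8 ± 18.5, 38.3 ± 2.51 and 33.6 ± 11.2 CPM. Both had their highest mean at 12 h, whereas the mean of cyclin-A1-1 was lower at 12 h than at 6 h. Other genes with B-type names differed between 0 and 6 h. Cyclin-B1-5 fell, as given above, and NO11G01810, with its proteasome factor domain, rose by 0.88 ± 0.26 (adjusted p = 0.014, edgeR). Cyclin-B1-2 (NO19G00890) was not called (0.38 ± 0.17, adjusted p = 0.09, edgeR) and fell by 0.75 ± 0.17 between 12 and 48 h (adjusted p = 0.003, edgeR).

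Of the 10 other tested NIMA-related kinases, 2 rose and 1 fell between 0 and 6 h, or 20% and 10% (all tested genes, 24.7% and 25.7%), with a median log2 difference of 0.29 (all tested genes, -0.03). With any 1 of the 6 libraries left out, 0 or 1 rose. Between 12 and 24 h, 3 rose and 5 fell, or 30% and 50% (all tested genes, 27.2% and 26.6%). The median was -0.21 (all tested genes, 0.02), and without 24 h replicate a, 3 fell. Between 12 and 48 h, 4 rose and 1 fell, or 40% and 10% (all tested genes, 26.6% and 26.2%), with a median of 0.80 (all tested genes, 0.01). Without 48 h replicate a none of them was called lower over that span. A second gene named Nek2 (NO26G01070) had 81.5 ± 5.52 CPM at 0 h, 79.8 ± 6.63 at 6 h, 43.8 ± 2.99 at 12 h, 60.4 ± 2.21 at 24 h and 106.7 ± 25.5 at 48 h. It rose by 1.28 ± 0.15 (log2) between 12 and 48 h (adjusted p = 1.5e-05, edgeR). Another gene of that name (NO02G00330) rose by 1.34 ± 0.16 over the same span (24.2 ± 1.53 to 61.1 ± 12.2 CPM, adjusted p = 1.9e-05, edgeR). A Nek6 gene (NO23G00760) fell from 69.6 ± 1.74 to 40.6 ± 2.93 CPM between 0 and 6 h (log2 -0.78 ± 0.17, adjusted p = 0.0022, edgeR) and rose from 31.1 ± 8.54 to 70.4 ± 5.47 CPM between 12 and 48 h (adjusted p = 1.1e-04, edgeR). Other members had their highest mean CPM at 12 h and fell by 24 h. The mean CPM of NO17G02980 was also highest then, though its peak was not resolved between 6 and 12 h. The Nek6 gene NO11G01500 fell by 1.46 ± 0.34 (65.7 ± 22.4 to 23.8 ± 0.656 CPM, adjusted p = 0.0031, edgeR). The Nek6 gene NO01G00260 fell by 1.10 ± 0.32 (31.1 ± 4.85 to 14.5 ± 2.04 CPM, adjusted p = 0.012, edgeR). Another Nek2-named gene (NO17G02100) rose by 0.61 ± 0.22 between 0 and 6 h (31.8 ± 1.03 to 48.5 ± 3.77 CPM, adjusted p = 0.037, edgeR), a call lost without any 1 of the 6 libraries (adjusted p = 0.052 to 0.1). It fell by 0.75 ± 0.22 between 12 and 24 h (55.9 ± 6.62 to 33.1 ± 6.24 CPM, adjusted p = 0.012, edgeR; 0.05 and not called without 24 h replicate a). Unlike NO17G02980 it stood highest at 48 h, with 94.2 ± 32.9 CPM. Of the 11 tested kinases of the family, 6 had their highest mean CPM at 48 h and 5 at 12 h. NO17G02980 counted among the latter only with 6 h replicate c kept.

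**Figure D3:**
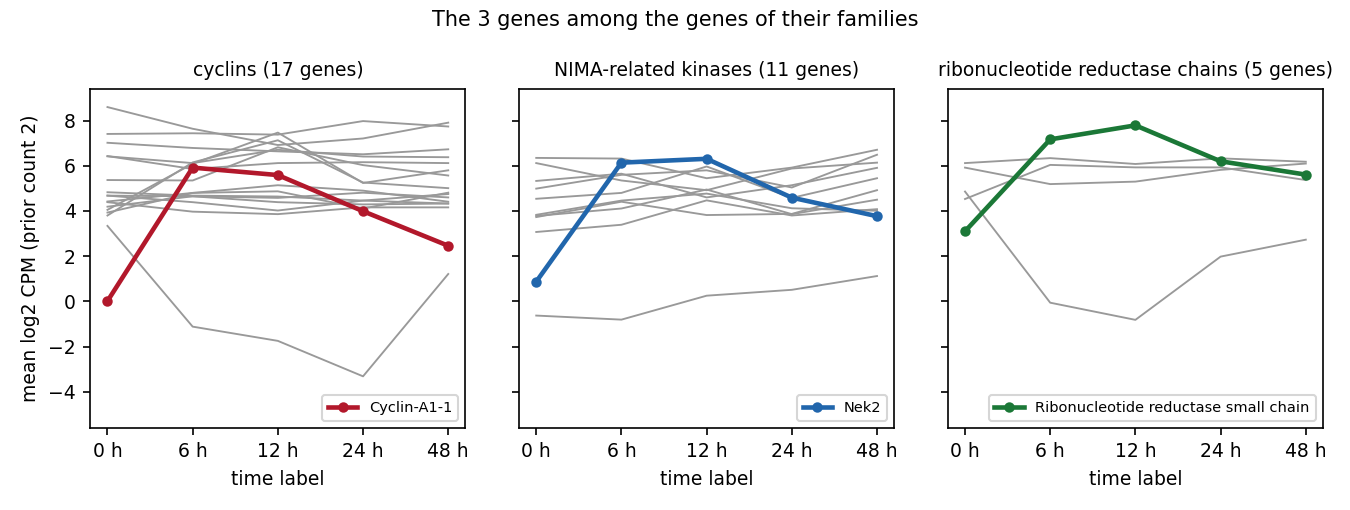
Mean log2 CPM at the 5 times for each tested cyclin, NIMA-related kinase and ribonucleotide reductase chain (1 line per gene, the chosen gene in colour, the rest in grey). The chosen genes start low and stand highest at 6 to 12 h, while the other lines of each family run in both directions.

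The other ribonucleotide reductase chains did not share the size of the small chain's difference. A second small chain gene (NO06G04100) rose between 0 and 6 h by 1.54 ± 0.12 (log2), from 23 ± 1.63 to 66.7 ± 12.2 CPM (adjusted p = 9.3e-07, edgeR). It stood at 60.9 ± 3.29 and 61 ± 4.82 CPM at 12 and 24 h, where NO04G04660 fell, and then fell by 0.56 ± 0.12 between 24 and 48 h (adjusted p = 0.0066, edgeR). A large chain gene (NO17G00650) had mean levels between 67.6 and 81.7 CPM at all 5 times, and its 6 h value of 0.23 ± 0.09 against 0 h did not pass the test (adjusted p = 0.062, edgeR). An adenosylcobalamin-dependent reductase (NO20G00900), a form of the enzyme that uses a vitamin B12 cofactor in place of a small chain, moved the other way. It fell by 0.73 ± 0.08 between 0 and 6 h (60.6 ± 1.33 to 36.4 ± 2.38 CPM, adjusted p = 6.6e-06, edgeR) and rose by 0.80 ± 0.08 between 12 and 48 h (to 68.5 ± 3.8 CPM, adjusted p = 3.6e-06, edgeR).

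A second large chain gene (NO09G00830) differed widely between the 0 h libraries, with 88.4, 58.9 and 4.58 CPM in a, b and c. It had 7.45, 0.383 and 0.139 CPM at 6 h. Its log2 difference of -4.26 ± 1.48 (adjusted p = 0.03, edgeR) was no longer called without 0 h replicate a (-3.59), 0 h replicate b (-4.14), 6 h replicate b (-3.77) or 6 h replicate c (-3.71), nor in a fit of the 6 libraries alone. Over the 4 chains other than NO04G04660, 1 rose and 2 fell between 0 and 6 h, or 25% and 50% (all tested genes, 24.7% and 25.7%). Their median was -0.25 (all tested genes, -0.03), and leaving out 1 library gave 1 or 2 in each direction.

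The wider machinery of replication and division was read through 13 lists, matched on the descriptions in the table. Of their 149 tested genes other than the chosen 3, 82 rose and 14 fell between 0 and 6 h, with a median log2 difference of 0.77 against -0.03 over all tested genes. These are 55% and 9.4% of them, where 24.7% and 25.7% of all tested genes were called. Without 6 h replicate c the counts were 78 and 12, and without 0 h replicate a 9 fell. Between 12 and 24 h, 10 rose and 80 fell, or 6.71% and 53.7% (all tested genes, 27.2% and 26.6%), with a median of -0.48 (all tested genes, 0.02). Between 12 and 48 h, 15 rose and 76 fell, or 10.1% and 51% (all tested genes, 26.6% and 26.2%), with a median of -0.59 (all tested genes, 0.01). At 48 h, 62 were higher than at 0 h and 8 lower, with a median of 0.30 (all tested genes, 0.01), where 26.3% of all tested genes were called higher and 23% lower.

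**Figure D4:**
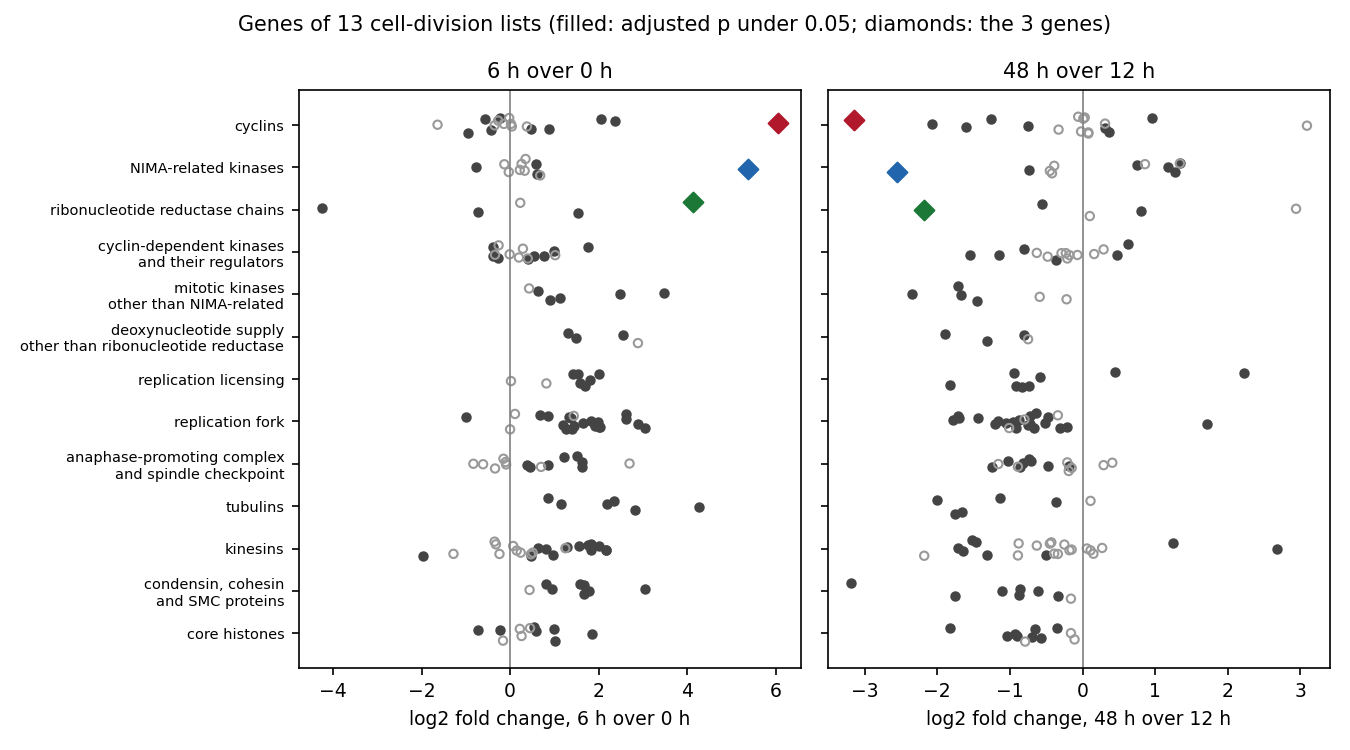
Log2 fold change of each tested gene of the 13 lists at 6 h against 0 h and at 48 h against 12 h; each circle is a gene, filled where the adjusted p (edgeR) was under 0.05 and open otherwise, and coloured diamonds are the 3 chosen genes, drawn with no test at 6 h. Most circles of the fork, tubulin and SMC lists lie right of 0 in the first panel (list medians 1.45, 2.26 and 1.62) and left of 0 in the second (-0.80, -1.40 and -0.87).

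Most genes of the replication fork rose early and fell late. Of 23 tested fork genes, 19 rose and 1 fell between 0 and 6 h (82.6% and 4.35%, median 1.45). Between 12 and 48 h, 19 fell and 1 rose (82.6% and 4.35%, median -0.80). Over all tested genes, 24.7% rose and 25.7% fell in the first span, and 26.6% rose and 26.2% fell in the second. The 1 fork gene that rose late (NO06G01820) had low means, 0.33 CPM at 12 h and 1.09 CPM at 48 h. With at least 50 counts in 3 libraries, 0 fork genes rose late. DNA polymerase epsilon subunit B (NO10G03890), of the leading-strand polymerase, rose from 17.8 ± 2.83 to 110.1 ± 6.37 CPM by 6 h (log2 2.62 ± 0.13, adjusted p = 3.2e-08, edgeR). A gene for ribonuclease H2 subunit A (NO26G00470), of an enzyme that removes ribonucleotides from DNA, was the exception and fell by 1.00 ± 0.16 (adjusted p = 2.2e-04, edgeR). A second gene of that name (NO16G01200) rose by 0.68 ± 0.12 between 0 and 6 h (adjusted p = 6.1e-04, edgeR). It then fell by 0.47 ± 0.12 between 12 and 48 h (adjusted p = 0.0069, edgeR). The list's largest rise, of a replication protein A subunit (NO15G01820) that coats single-stranded DNA, was 3.05 ± 0.80 (adjusted p = 0.0069, edgeR). It rested partly on 0 h replicate a, at 1.05 CPM against 40 and 44.7 in b and c, without which it was 2.48 (adjusted p = 4.3e-07, edgeR). With only the 6 libraries compared, its adjusted p was 0.074 (edgeR).

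Of the 4 other genes of deoxynucleotide supply, 3 rose between 0 and 6 h (75%, median 2.02) and 3 fell between 12 and 48 h (75%, median -1.06). Over all tested genes, 24.7% rose and 25.7% fell in the first span, and 26.6% rose and 26.2% fell in the second. The medians include an uncalled thymidylate kinase gene (NO13G01260), which varied widely between libraries. Its values were 2.89 ± 2.14 (adjusted p = 0.29, edgeR) and -0.75 ± 2.01 (adjusted p = 0.79, edgeR). The dUTPase (NO29G00820), which keeps uracil out of DNA, rose from 32.1 ± 1.44 to 188.8 ± 25.8 CPM (log2 2.56 ± 0.09, adjusted p = 4.8e-09, edgeR). A gene named dihydrofolate reductase-thymidylate synthase (NO24G00040), annotated with only the dihydrofolate reductase domain, rose by 1.48 ± 0.22 by 6 h and fell by 1.90 ± 0.22 between 12 and 48 h (adjusted p = 1.2e-04 and 1.8e-05, edgeR). Another gene of that name (NO13G01270), which also carries the thymidylate synthase domain, rose by 1.30 ± 0.08 and fell by 0.81 ± 0.08 (adjusted p = 2.0e-07 and 7.6e-06, edgeR). Of the 8 MCM genes of the replication licensing list, most of which encode subunits of the replicative helicase, 6 rose between 0 and 6 h (median 1.56). Between 12 and 48 h, 6 of the 8 fell and 2 rose (75% and 25%, median -0.79). The helicase subunit MCM3 (NO02G05290) had 43.1 ± 0.964, 173.1 ± 23, 338.0 ± 56.5, 107.8 ± 11.3 and 94.9 ± 19.8 CPM at the 5 times. MCM9 (NO01G02850) was not called between 0 and 6 h (0.02 ± 0.07, adjusted p = 0.83, edgeR). It rose by 0.45 ± 0.07 between 12 and 48 h (adjusted p = 2.2e-04, edgeR). MCM8 (NO08G00890) was called higher at 48 h than at 12 h, at 2.23 ± 0.73 (adjusted p = 0.022, edgeR), but not without 12 h replicate b (adjusted p = 0.061), 12 h replicate c (0.071), 48 h replicate a (1.68, adjusted p = 0.087) or 48 h replicate b (0.053), nor with only the 6 libraries compared (0.058).

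Of the 15 cyclin-dependent kinases and their regulators, 5 rose and 3 fell between 0 and 6 h (33.3% and 20%, median 0.29), and 2 rose and 4 fell between 12 and 48 h (13.3% and 26.7%, median -0.23). Over all tested genes the shares were 24.7% and 25.7%, then 26.6% and 26.2%. Of 3 genes named after Wee1, a kinase known in animals and yeasts to hold back mitotic entry, NO10G03130 rose by 1.76 ± 0.41 and then fell by 1.55 ± 0.41 (adjusted p = 0.0035 and 0.0072, edgeR), and the other two were not called. The 3 genes named as homologues of the cell division kinase CDC2 differed. NO19G01390 rose by 0.99 ± 0.13 between 0 and 6 h and fell by 1.15 ± 0.14 between 12 and 48 h (adjusted p = 6.4e-05 and 1.9e-05, edgeR), and NO06G02840 was not called in either. NO03G02910 took the other course, falling by 0.38 ± 0.08 between 0 and 6 h and rising by 0.62 ± 0.08 between 12 and 48 h (adjusted p = 0.0022 and 5.7e-05, edgeR). Of 6 genes named as Aurora kinases, which act in mitosis, 5 rose between 0 and 6 h (3 in a fit of the 6 libraries alone) and 4 fell between 12 and 48 h (83.3% and 66.7%, medians 1.01 and -1.57). Among the 5, NO04G04240 has a domain annotation that opens with a short chain dehydrogenase. NO04G04250, also among them, lay near the floor, with means of 0.0501 CPM at 0 h and 0.623 CPM at 6 h. Aurora-2 (NO04G04260) had 2.07 ± 0.562 CPM at 0 h, 11.5 ± 1.24 at 6 h and 38.6 ± 1.23 at 12 h. Its ID neighbours those of other Aurora-named genes, whose likeness in sequence was not examined. How reads matching more than 1 gene were assigned is not given in the sources used here.

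In the tubulin, SMC and spindle checkpoint lists, every gene called between 0 and 6 h rose and every gene called between 12 and 48 h fell, except that 1 checkpoint list gene was called as rising over the latter span without 48 h replicate a, with upper-quartile factors or with only the 6 libraries compared. Over all tested genes, 24.7% rose and 25.7% fell between 0 and 6 h, and 26.6% rose and 26.2% fell between 12 and 48 h. All 6 tubulins rose between 0 and 6 h (median 2.26) and 5 fell between 12 and 48 h (median -1.40). The beta-tubulin NO04G01220 rose from 7.8 ± 0.24 to 151.2 ± 28.7 CPM (log2 4.27 ± 0.16, adjusted p = 6.9e-09, edgeR), and since several genes carry the name beta-5, its share of reads is uncertain. Of 8 condensin, cohesin and SMC genes, 7 rose between 0 and 6 h and 7 fell between 12 and 48 h (medians 1.62 and -0.87). The SMC4-named gene (newGene_158) fell by 3.19 ± 0.26 between 12 and 48 h (54.6 ± 4.17 to 5.96 ± 2.07 CPM, adjusted p = 1.2e-06, edgeR), close to the value of cyclin-A1-1. Of 15 genes of the anaphase-promoting complex and spindle checkpoint, 7 rose between 0 and 6 h and 8 fell between 12 and 48 h (46.7% and 53.3%, medians 0.44 and -0.71). The checkpoint protein MAD2 (NO03G03720) rose from 15.1 ± 0.942 to 46.3 ± 13.1 CPM (log2 1.62 ± 0.17, adjusted p = 6.9e-06, edgeR). CDC20.2 (NO02G02210), an activator of the complex, fell by 1.25 ± 0.27 between 12 and 48 h (adjusted p = 0.0019, edgeR).

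Of 23 kinesins, motors that move along microtubules, 12 rose and 1 fell between 0 and 6 h (52.2% and 4.35%, median 0.62; all tested genes, 24.7% and 25.7%). Between 12 and 48 h, 2 rose (0 to 2 with 1 library left out) and 6 fell (median -0.43), and the 26.1% that fell lay at the share of all tested genes, 26.2%. KIN-5B (NO23G01640), of the class that slides spindle microtubules apart, rose by 2.17 ± 0.16 by 6 h (adjusted p = 4.6e-07, edgeR), and KIN-5C (NO02G04250) fell by 1.71 ± 0.22 between 12 and 48 h (adjusted p = 3.5e-05, edgeR). The 1 kinesin that fell, KIN-12E (NO06G00540, -1.97 ± 0.63, adjusted p = 0.021, edgeR), had 8.23, 20.9 and 56.8 CPM in 0 h replicates a, b and c. Its value was -0.99 without 0 h replicate c (adjusted p = 0.16), and the call was also lost without 6 h replicate a (adjusted p = 0.071), without 6 h replicate b (0.069) and with only the 6 libraries compared (0.076). Of 11 core histones, 5 rose and 2 fell between 0 and 6 h (45.5% and 18.2%, median 0.45). Without 0 h replicate a or b or 6 h replicate a or c, 1 fell. Between 12 and 48 h, 8 of the histones fell (72.7%, median -0.69). A histone H2A variant (NO22G01340) had 165.6 ± 3.13, 598.8 ± 103.3 and 1619 ± 250.0 CPM at 0, 6 and 12 h, and had fallen to 484.4 ± 90.5 CPM by 24 h (log2 -1.74 ± 0.17, adjusted p = 5.2e-06, edgeR).

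The time of the highest mean differed between lists. Of the 23 fork genes, 20 were highest at 6 h, as was cyclin-A1-1, and 6 of the 8 MCM genes were too. Of the 11 histones, 9 were highest at 12 h, as were 5 of the 6 Aurora-named genes, the small chain and Nek2. Over all tested genes, 15.7% were highest at 6 h, 27.7% at 12 h and 29.2% at 0 h. Without 6 h replicate c, 19 fork genes and 5 MCM genes were highest at 6 h, and so was Nek2. That library was lower than both a and b in 60.9% of the 138 list genes whose log2 CPM averaged 3 or more, against 39.3% of all such genes, and in 20 of 22 fork genes. Its part in these peak times was not otherwise tested.

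**Figure D5:**
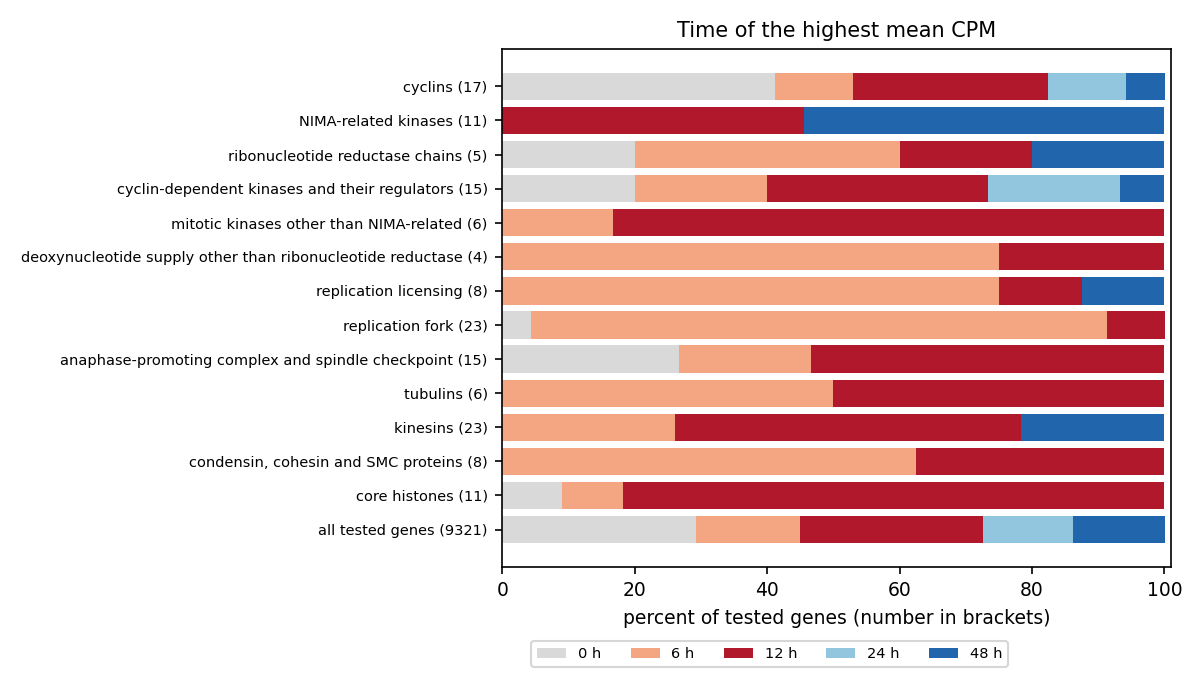
Percent of the tested genes of each list, and of all tested genes, whose highest mean CPM fell at each of the 5 times (stacked bars from 0 to 100%). The fork list is mostly highest at 6 h (20 of 23 genes) and the histone list mostly at 12 h (9 of 11).

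The 3 genes followed each other closely across the libraries. Over the 15 libraries the Pearson correlation of log2 CPM was 0.987 between cyclin-A1-1 and Nek2, 0.990 between Nek2 and the small chain and 0.967 between cyclin-A1-1 and the small chain. These correlations are a description. The genes were chosen for the same rise, and the points of a gene pair share libraries and times. Among 8013 other genes whose log2 CPM averaged 3 or more, 84, 88 and 97 reached a correlation of 0.95 with cyclin-A1-1, Nek2 and the small chain, which is 1.05%, 1.1% and 1.21% of them.

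The genes most like each of the 3 were taken as the 5 with the highest correlation. For cyclin-A1-1 they were the beta-tubulin NO04G01220 (0.990), Nek2 (0.987), a NEDD1-named gene (NO07G02410, 0.987), the beta-tubulin NO10G00240 (0.987) and the small subunit of DNA polymerase delta (NO07G00460, 0.983). For Nek2 they were NO10G00240 (0.994), an undescribed gene (NO09G02030, 0.993), a gene of the OST3/OST6 family (NO14G01070, 0.992), the small chain (0.990) and an N-alpha-acetyltransferase subunit (NO23G01550, 0.989). For the small chain they were a conserved gene of unknown function (NO06G00830, 0.995), an alpha-tubulin (NO12G02410, 0.994), NO10G00240 (0.992), a protein disulfide isomerase (NO20G01830, 0.992) and NO23G01550 (0.991). The beta-tubulin NO10G00240 was thus in the list of each of the 3. The choice within so many close genes depends on the measure, since ranking by Spearman's rho kept 0, 0 and 2 of the 5 for cyclin-A1-1, Nek2 and the small chain.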

How the data were processed

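RNA-seq values of 15 libraries were read from the authors' table, which gives per gene and library an expected count (estimated count, whole as deposited) and an FPKM value scaled by the authors for length and depth, per the file headers. HISAT2 is named without a version, per the submitters' processing notes; the sources used here give no counter, genome build, annotation or strandedness. No row without a gene name was used.

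The test was edgeR 4.0.16 in R 4.3.3 (filterByExpr by time, which removed 1113 genes, TMM scaling, quasi-likelihood F-test over 15 libraries with 5 time means, two-sided, Benjamini-Hochberg adjustment over 9321 genes at 0.05). SEs were taken as the size of the log2 difference over the root of its F. CPM used TMM-scaled totals. A prior count of 2 was used for log2 CPM. Alternatives were DESeq2 1.42.0, its size factors, upper-quartile factors, no filter, at least 50 counts in 3 libraries, only the 6 libraries compared, the replicate letter as a block and each library left out. Limma 3.58.1 on log2(FPKM + 0.1) and the lists without 6 h replicate c were added after seeing the data. The tests were tested on simulated data. Tables and figures used Python 3.11.15, pandas 2.3.3 and matplotlib 3.10.9.

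The 3 genes, the 13 lists (158 genes, matched by description, so that some hold genes their name does not cover) and the tests were chosen with earlier results of these data known. Named genes were the 6 other genes of each family with the highest mean log2 CPM and, per other list, the largest called rise and fall at 6 h against 0 h and 48 h against 12 h whose log2 CPM averaged 3 or more. Same-letter libraries did not deviate together (0 of 30 pairs above a correlation of 0.1, range -0.088 to 0.0768), so the letter was no block. Libraries of the same time were not copies (chi-square per degree of freedom 56.9 to 131). The floor for a count of 0 was 3 counts.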

Additional observations from a re-analysis of the deposited data

How the results depend on the processing

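The falls of cyclin-A1-1 and Nek2 between 12, 24 and 48 h, and those of the small chain of ribonucleotide reductase from 12 h, kept their direction and stayed called in all 14 alternatives of each. Cyclin-A1-1 between 12 and 48 h ranged from -3.24 to -3.01 (log2, largest adjusted p = 2.3e-04, edgeR, DESeq2 or limma). Nek2 between 24 and 48 h ranged from -0.93 to -0.73 (largest adjusted p = 0.019). The small chain between 24 and 48 h ranged from -0.66 to -0.47. It passed the threshold with DESeq2 (-0.58), with only the 6 libraries compared (-0.58), with upper-quartile factors (-0.60) and with limma on the authors' FPKM (-0.63); the cause was not tested. Leaving out 1 library gave -0.66 to -0.47 and never a call.

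With the replicate block it was -0.59 (adjusted p = 0.075, edgeR), cyclin-A1-1 between 12 and 48 h was -3.14 and the other genes of the 13 lists called higher at 6 h than at 0 h numbered 79 in place of 82. The block changed no call of the 3 genes. All 78 counts of called genes over the whole table stayed within 1.5 times. Of the counts within the lists, 1364 did so and 92 did not. The highest count among the latter was the 14 list genes that fell between 0 and 6 h, 9 without 0 h replicate a. Small counts moved by larger ratios. For example, 1 of the cyclin-dependent kinases and their regulators rose between 12 and 24 h, but 4 without 12 h replicate a. On FPKM, Nek2 was -0.38 at 12 h against 6 h. Depth limits cyclin-A1-1 at 0 h most, with 15 to 24 counts per library.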
